A study of Mus musculus with 48 samples.

Results

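Cells of 2 kinds, microglia and macrophages of GL261 brain tumors, were chosen from a table of single-cell counts by the UMIs (unique molecular identifiers, each counting 1 captured RNA molecule) of a few genes, and their expression was compared within each library. A cell with at least 500 genes was taken as microglia-gated when P2ry12, Tmem119, Gpr34 and Sall1 together had 3 UMIs or more, and as macrophage-gated when it had at least 2 UMIs of Ms4a7, at least 5 of Lyz2 and none of those 4 microglia genes. Cells of either kind with a UMI of Cd3d, Cd3e or Cd3g, which encode parts of the T cell receptor complex, were left out. Of the 9172 cells deposited, 8726 had 500 genes or more, and 2024 were gated, 997 as microglia and 1027 as macrophages. The remaining cells of the mix were not used here except where they are named.

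The study asked what P-selectin made by glioblastoma cells does to the immune cells of the tumor. GL261, a glioma line of the C57BL/6 mouse, was implanted into the brains of C57BL/6 mice (male, 6 weeks old) after transduction with an shRNA against Selp, the P-selectin gene (shSELP), or with a negative control shRNA (shNC), so that both groups carried a hairpin vector and the hosts kept their own Selp. Whole tumors were taken on day 16 by the labels and 1 day later by the study's methods, and CD11b+ cells, the remaining CD45+ cells and the rest were mixed in equal amounts before droplet capture, which gave 2 libraries per group (shNC 1, shNC 2, shSELP 1 and shSELP 2). In a separate experiment, CD11b+ cells, taken on day 21 by the labels and on the same day as the mix by the study's methods, gave 1 shNC and 1 shSELP library. For the shSELP library the description lines of 7 of 8 sequencing entries name the negative control, and the titles were followed. Brains were pooled, 3 per group by the study's methods, which name the pool with the CD11b+ cells and then give the mix as an alternative. No source said whether 1 pool or 2 fed the 2 mix libraries of a group, so the spread between them covers library preparation at least and may cover no difference between animals. The sort into equal parts fixed the share of myeloid cells in the mix, which therefore says nothing of their number in the tumor. The knockdown itself could not be checked in these cells, since it was made in the tumor cells. The libraries held 22945972, 22626413, 17398121 and 25589350 UMIs in the order shNC 1, shNC 2, shSELP 1 and shSELP 2, and every set of 4 values below stands in that order.

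Microglia are the resident macrophages of the brain, seeded from the yolk sac in the embryo and kept by colony-stimulating factor 1 receptor signalling and TGF-beta. In gliomas they are joined by macrophages derived from blood monocytes, which take on many of the features of resident cells while they differentiate. The genes most often used to tell them apart encode surface receptors and transcription factors such as P2ry12, Tmem119 and Sall1, which inflammation can lower in microglia themselves.

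Among the gated cells, shSELP 1 stood apart. It held 354 microglia-gated and 162 macrophage-gated cells, whereas the other libraries held 244, 195 and 204 microglia-gated and 257, 314 and 294 macrophage-gated cells. Its microglia-gated cells were also shallower, with a median of 9816 UMIs per cell against 14684.5, 19858 and 17640.5 in shNC 1, shNC 2 and shSELP 2, while its macrophage-gated cells had a median of 10656 UMIs, against 10601, 10918 and 15957.5 in the others. The level of the gate genes moved with this. P2ry12 was 89.9, 101, 414 and 148 CPM (counts brought to a common sequencing total) in microglia-gated cells, Gpr34 47.4, 65.8, 257 and 72.4 CPM and Sall1 10.2, 16.7, 57.0 and 27.6 CPM, while Tmem119 was more even at 276, 269, 374 and 254 CPM. These genes chose the cells, and their values are a description. No cell barcode was shared between libraries among the gated cells, and 5 were shared among all 9172 cells.

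The label of the microglia gate held only in part. Of its 997 cells, 543 (54.5%) also had a UMI of Ms4a7, a gene of macrophages of blood origin and of the brain's borders, and 485 (48.6%) passed both macrophage limits. The share with Ms4a7 was 71.7% in shNC 1, 63.6% in shNC 2, 34.7% in shSELP 1 and 59.3% in shSELP 2. In these Ms4a7-positive cells Sall1, a transcription factor that within the brain's myeloid cells marks microglia, was at 0.348, 6.69, 17.4 and 4.04 CPM, against 48.0, 43.1, 97.2 and 87.3 CPM in the 454 microglia-gated cells without Ms4a7. They were also deeper, with medians of 15802, 22791, 17041 and 22202 UMIs per cell against 9770.0, 11505, 7751 and 10780.0. No doublets were removed here, and whether these cells are doublets, carry ambient RNA or express both sets was not tested. The cells are therefore called microglia-gated and macrophage-gated, and the difference is also given with the 543 Ms4a7-positive cells left out, which left 69, 71, 231 and 83 microglia-gated cells. At the edge of the gate, 200 cells had exactly 3 UMIs of the microglia genes and 386 had 2. On the other side, 129 macrophage-gated cells had exactly 2 UMIs of Ms4a7 and 162 cells with 1 were outside, and 765 cells that met both macrophage limits had 1 or 2 UMIs of the microglia genes and so entered neither class.

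**Figure D1:**
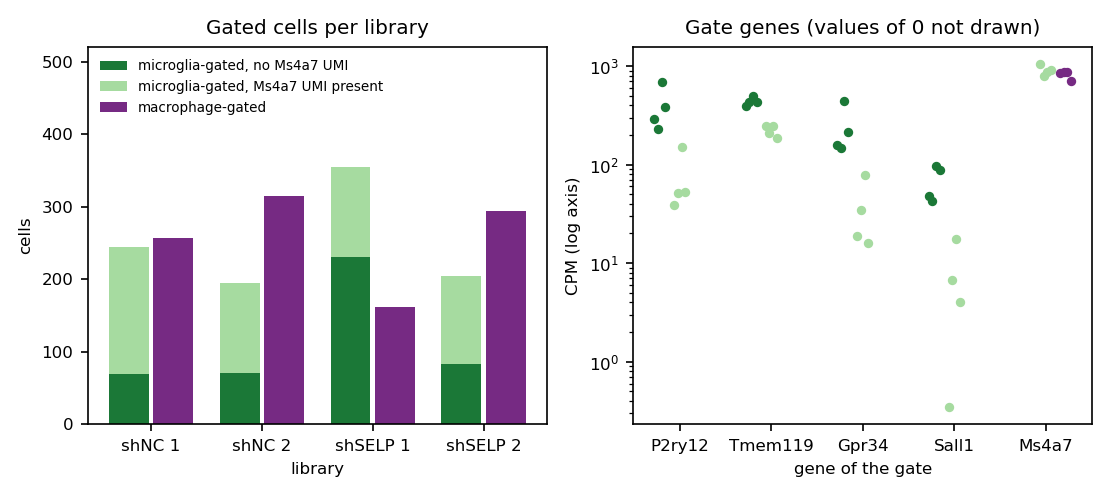
Left, number of gated cells in each library, with macrophage-gated cells, microglia-gated cells with an Ms4a7 UMI and those without drawn separately; right, CPM on a log axis of 5 gate genes in each library and set of cells. The shSELP 1 library held 231 microglia-gated cells without Ms4a7, against 69, 71 and 83 in the others.

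Summed over the cells of a class in each library and with the 9 genes of the gate left out, 9600 genes could be tested for a difference between the classes, paired within the 4 libraries, by edgeR's quasi-likelihood test with Benjamini-Hochberg adjustment over all genes tested. At an adjusted p under 0.05, 2241 genes (23.3%) were called, 1151 (11.99%) higher in microglia-gated and 1090 (11.4%) higher in macrophage-gated cells, and 702 (7.31%) differed at least 2-fold, 508 (5.29%) higher in microglia-gated and 194 (2.02%) in macrophage-gated cells. Since cells were chosen on genes that themselves differ between these cell types, these shares are the background for the counts below and nothing was read from them. TMM scaling placed the median of all genes at a log2 difference of 0.02, and without it the median was 0.14 and the called genes split into 1708 and 679, so every direction below is relative to that median. With the Ms4a7-positive cells left out, 3180 genes of 8575 (37.1%) were called, 1614 (18.8%) and 1566 (18.3%) in the 2 directions, and without shSELP 1 the count was 1865 of 9611 (19.4%), 951 (9.89%) and 914 (9.51%). The count fell further without shNC 2, to 1235, and without shSELP 2, to 1458. Without the block for library, 1354 genes were called. CPM are relative to the UMIs of the summed cells without the gate genes (those of the gate genes themselves to all UMIs) and use no TMM factors, log2 differences are microglia-gated minus macrophage-gated from the fit with their standard errors, and adjusted p-values are from this edgeR test.

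Genes of microglia identity outside the gate stood at the top of the difference. Of the 26 on the list all were tested, 24 were higher in microglia-gated cells and none in macrophage-gated cells, with a median log2 difference of 2.51 against 0.02 over all genes tested. Cx3cr1 (chr9:119901616-120069879, mm10), the receptor for the neuronal chemokine fractalkine, was at 391, 389.8, 883 and 470.0 CPM in microglia-gated cells and at 131, 78.2, 68.9 and 50.01 CPM in macrophage-gated cells. The classes did not overlap, and shSELP 1 held the highest microglia value. The log2 difference was 2.55 ± 0.28 (edgeR quasi-likelihood adjusted p = 0.00023, higher in 4 of 4 libraries), 2.25 without shSELP 1, 1.83 in the shNC libraries alone and 3.31 in the shSELP libraries alone. Sparc, a secreted matrix protein, was at 284, 369, 1042 and 361 CPM against 12.2, 14.9, 14.1 and 13.1 CPM. Its macrophage values were even and low, while shSELP 1 again held the highest microglia value.

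Other members with large differences were Crybb1, a crystallin found in microglia, at 5.82 log2 (4.92 in the shNC and 6.71 in the shSELP libraries), Siglech, a sialic acid-binding lectin, at 5.42 (3.81 in the shNC and 7.86 in the shSELP libraries), Serpine2, a secreted protease inhibitor, at 4.80, Fcrls, an Fc receptor-like scavenger receptor, at 2.50, and the tetraspanin Cd81 at 2.48. Fcgr1 and Abi3 were the 2 members not called. Since the cells were chosen on 4 genes of the same program, the counts of this list and of the next describe the gate and support no claim of identity. Outside the lists, the largest differences above 100 CPM with no overlap of the classes included Pmp22, a membrane protein of myelin and of many other cells, at 3.23 log2, Plxdc2, a transmembrane protein, at 4.22 (3.43 and 4.98 in the shNC and shSELP libraries), and the small GTPase Rhob at 2.43 (1.77 and 3.11). Called genes with this mean and with no overlap numbered 152 on the microglia side and 235 on the macrophage side, of 9600 tested. Over all 9600 genes, called or not and at any level, 1449 had no overlap with microglia-gated cells higher and 571 with macrophage-gated cells higher. These are the background wherever the classes are said not to overlap.

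Leaving out the Ms4a7-positive cells widened these differences. Of the identity list, 25 members were then called higher in microglia-gated cells and 1, Fcgr1, in macrophage-gated cells (-0.44). In microglia-gated cells without Ms4a7 the identity list had a median of 3.28, and the differences were 3.35 for Cx3cr1, 6.27 for Sparc and 7.18 for Crybb1. Cx3cr1 itself was at 296, 309.5, 419 and 219.7 CPM in the Ms4a7-positive cells and at 749.8, 599.8, 1349.8 and 1097 CPM in those without it. The Ms4a7-positive cells thus lay between the other sets for this gene, in every library. A gate of 3 microglia UMIs per 10000 UMIs of the cell, in place of 3 in all, likewise widened the difference of Sparc to 5.64, of Serpine2 to 5.48 and of Csf1, a growth factor described below, to 3.87.

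Genes of monocyte-derived macrophages ran the other way. Of 34 tested, 32 were higher in macrophage-gated cells and none in microglia-gated cells, with a median of -1.20. Ly6c2, a surface protein of inflammatory monocytes, was at 267, 786, 481 and 693 CPM in macrophage-gated cells and at 34.2, 165, 60.3 and 195 CPM in microglia-gated cells. It was lowest in shNC 1 in both classes, so its level depended on the library as well as on the class. The log2 difference was -2.58 ± 0.18 (edgeR quasi-likelihood adjusted p = 1.7e-05, higher in macrophage-gated cells in 4 of 4 libraries) and -2.39 without shSELP 1. Plac8, an interferon-responsive gene of monocytes, was at 478, 653, 504 and 612 CPM against 101, 178, 113 and 271 CPM, with no overlap. Chil3, a chitinase-like lectin made by monocytes and alternatively activated macrophages, was at 68.8, 85.5, 152 and 157 CPM against 9.17, 19.8, 9.32 and 24.4 CPM. The difference of -2.99 went to -2.30 with cells under 10000 UMIs left out and to -3.71 with cycling cells left out. All of its microglia values were under 25 CPM, and both shSELP libraries had more of it than both shNC libraries in macrophage-gated cells. F10, the coagulation factor X precursor, differed by -2.38, Thbs1, a matrix glycoprotein that activates latent TGF-beta, by -1.57, Ahnak, a large scaffold protein, by -1.69, Napsa, an aspartic protease, by -1.59, Crip1, a small LIM protein, by -1.53, and Ccr2, the receptor that draws monocytes to Ccl2, by -1.87. Ifi205, an interferon-inducible gene outside the lists, differed by -1.76. Ifi27l2a and Anxa1 were not called.

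Here too the mixed cells mattered. Tgfbi, an extracellular matrix protein of monocyte-derived cells, was at 1387, 1204, 1009.8 and 1496 CPM in Ms4a7-positive and at 138, 64.7, 84.7 and 66.1 CPM in Ms4a7-free microglia-gated cells, against 1589, 1473, 1528 and 1515 CPM in macrophage-gated cells. The Ms4a7-positive cells came within 2-fold of the macrophages, and the Ms4a7-free cells were far below both. Its log2 difference went from -0.90 to -4.36 when the Ms4a7-positive cells were left out, and those of Ccr1 and Clec4e, a chemokine receptor and a lectin that senses mycobacterial glycolipid, from -0.99 to -4.00 and from -1.88 to -3.96. Ifitm3, an antiviral membrane protein, moved less, from -0.83 to -1.21. With the gate of 3 microglia UMIs per 10000, the differences were -1.60 for Tgfbi, -1.72 for Ccr1 and -2.34 for Napsa.

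**Figure D2:**
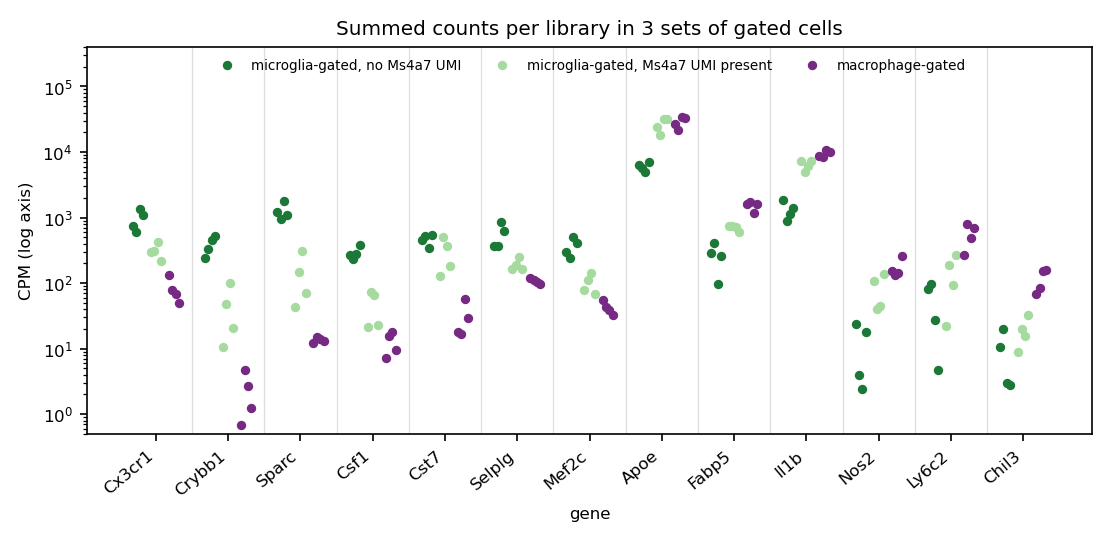
CPM on a log axis of named genes in 3 sets of gated cells, microglia-gated without an Ms4a7 UMI, microglia-gated with one and macrophage-gated, with 1 point per library. Cx3cr1 lay at up to 131 CPM in macrophage-gated cells, at 219.7 to 419 CPM in microglia-gated cells with Ms4a7 and at 599.8 to 1349.8 CPM in those without.

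Transcription factors split between the classes. Of 35 tested, 10 were higher in microglia-gated and 15 in macrophage-gated cells, and the list median was -0.04. It turned to 0.07 without TMM, to 0.07 in the shSELP libraries alone, to 0.04 with cycling cells left out and to 0.01 after thinning to 2000 UMIs. Mef2c, a MADS-box factor of the microglial program, was at 124, 146, 322 and 166 CPM against 54.9, 43.8, 39.1 and 32.9 CPM. The classes did not overlap, and the difference of 1.93 ± 0.23 (edgeR quasi-likelihood adjusted p = 0.0004, 4 of 4 libraries) was 1.65 without shSELP 1. Klf2, a zinc finger factor linked to quiescence, differed by 1.79 and Mef2a by 0.75. Higher in macrophage-gated cells were Nr1h3, the oxysterol receptor LXR-alpha (-1.24; -1.99 with 3 microglia UMIs per 10000 and -4.54 without Ms4a7-positive cells), Irf7, a factor of the interferon response (-0.81), Bhlhe40 (-0.84) and Cebpb, a factor of emergency myelopoiesis (-0.55). Spi1, which encodes the myeloid factor PU.1, was at 339.5, 349.9, 377 and 367 CPM against 361, 375, 328 and 318 CPM and was not called, nor were Irf8 (0.00) and Runx1 (0.03).

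The TGF-beta pathway, which microglia need to keep their identity, had 6 members higher in microglia-gated and 2 higher in macrophage-gated cells of 17 tested. The list median of 0.06 went to -0.02 without shSELP 1. Both receptor subunits, Tgfbr1 (0.82) and Tgfbr2 (0.88), were higher in microglia-gated cells, as were the inhibitory Smad7 (2.10) and the integrin subunit Itgb5 (0.97). Tgfb1, the ligand, was at 159, 149, 184 and 173 CPM against 164, 176, 165 and 188 CPM. Its ranges overlapped and it was not called (-0.18 ± 0.08). Inhba, which encodes the subunit of activin A, ran against the receptors, at 115, 161, 179.6 and 401 CPM in macrophage-gated and 29.2, 18.96, 34.1 and 79.7 CPM in microglia-gated cells. It was highest in shSELP 2 in both classes, and the difference was -2.54 ± 0.15 (edgeR quasi-likelihood adjusted p = 6e-06, 4 of 4 libraries), or -3.22 with a microglia gate of 5 UMIs and -6.59 with the Ms4a7-positive cells left out.

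Genes of the disease-associated state of microglia, a program first described around amyloid plaques, did not move as a block. Of 26 listed in the program, 24 were in the table and 23 were tested, with 9 higher in microglia-gated and 8 in macrophage-gated cells and a median of 0.02. That median turned under 8 alternatives, to -0.57 with the Ms4a7-positive cells and to -0.20 with cycling cells left out. Cst7, an inhibitor of lysosomal cysteine proteases, was at 198, 503, 357 and 284 CPM against 17.7, 16.8, 58.0 and 29.2 CPM. Every microglia value was above every macrophage value, with the highest in shNC 2, and the difference of 3.42 ± 0.28 was larger in the shNC libraries (4.20) than in the shSELP libraries (2.83), a contrast that was not called in the test of the groups described further on. Csf1, the ligand of the receptor that keeps microglia alive, was at 73.6, 117, 170.4 and 126 CPM against 7.30, 15.7, 17.9 and 9.38 CPM and differed by 3.18 ± 0.14 (edgeR quasi-likelihood adjusted p = 1.5e-06, 4 of 4 libraries). Trem2, the lipid-sensing receptor of this program, differed less, at 0.57, and its partner Tyrobp was alike (0.03). The macrophage side held Fabp5, a fatty acid-binding protein (-1.59), Gpnmb, a lysosomal glycoprotein (-1.55), Lgals3, the lectin galectin-3 (-1.01), and Apoe, the lipid carrier (-0.71). Apoe was also the most abundant member, at 20078, 14638, 18512 and 24444 CPM against 27096, 21897, 34552 and 33410.1 CPM. Each library had more of it in macrophage-gated cells, by less than 2-fold, and with the Ms4a7-positive cells left out the difference was -2.45. Spp1, which encodes osteopontin, was at 2505, 1500.0, 319.9 and 519 CPM against 1568, 1527, 936 and 1068 CPM and was not called. In shNC 1 it was higher in microglia-gated cells and in both shSELP libraries lower, and in a fit without shNC 1 it was called at -0.99.

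Lipid handling genes had 3 members of 20 higher in microglia-gated and 8 in macrophage-gated cells (median -0.18), the latter including the cholesterol carrier Npc2 (-0.44), the lipid droplet protein Plin2 (-0.68) and the scavenger receptor Msr1 (-0.62). Without the block Plin2 and Msr1 were not called (edgeR adjusted p = 0.066 and 0.13). Among lysosomal genes, 9 of 23 were higher in microglia-gated and 5 in macrophage-gated cells (median 0.11, and -0.05 with the Ms4a7-positive cells left out). The protease genes Ctsf (4.41; 3.50 in the shNC and 5.37 in the shSELP libraries), Ctsd (0.77) and Ctsl (0.54) were on the microglia side, and Ctsk, the collagen-degrading cathepsin of osteoclasts, on the macrophage side (-3.09). Cst3, the secreted inhibitor cystatin C, was at 4114, 5122, 16284 and 6147 CPM against 2169, 2027, 1711 and 1710.4 CPM. The shSELP 1 microglia value was more than 2-fold any other, and the difference was 1.71, 1.26 without shSELP 1, 1.02 in the shNC and 2.42 in the shSELP libraries. Ctsb, Ctsz and Lamp2 were not called, at 0.02, 0.11 and 0.05. Of the iron genes, 1 of 12 was higher in microglia-gated and 4 in macrophage-gated cells. The median of -0.07 turned to 0.04 without TMM and to 0.01 without shSELP 1. Both ferritin chains lay on the macrophage side, Fth1 at 31843, 31746, 39556 and 43056 CPM against 24452, 19867, 20656 and 26322 CPM (-0.79) and Ftl1 at -0.39.

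Of the 10 genes of class II antigen presentation, 6 were higher in macrophage-gated and 2 in microglia-gated cells (median -0.39). H2-Ab1, which encodes the beta chain of I-A, was at 8122, 5938, 4918 and 9081 CPM against 9608, 7954, 9507 and 10528 CPM. Each library had more of it in macrophage-gated cells, but the classes overlapped between libraries, and its difference of -0.57 ± 0.11 (edgeR quasi-likelihood adjusted p = 0.0044, 4 of 4 libraries) was not called without the block for library (adjusted p = 0.09). Without the Ms4a7-positive cells it was -1.99. The same loss without the block held for H2-Aa (-0.52) and for Cd74, the invariant chain (-0.39), which was also not called without shNC 2 (-0.39, edgeR adjusted p = 0.064). H2-Oa, a chain of H2-O, which holds back peptide exchange on class II, went the other way at 1.96. It was at 51.1, 69.9, 118 and 125 CPM against 15.6, 17.3, 27.7 and 24.4 CPM, with no overlap of the classes.

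Class I and peptide loading genes differed little, with 7 of 20 higher in macrophage-gated cells, none in microglia-gated cells and a median of -0.16. The called members included the immunoproteasome subunit Psmb10 (-0.52) and the loading factor Tapbp (-0.41), while B2m, the light chain, was at 6199, 6498, 5715 and 6509 CPM against 6486, 6559.6, 5601 and 6636 CPM. Interferon-stimulated genes were called in 15 of 26, all higher in macrophage-gated cells, with a median of -0.35. Rsad2, the antiviral enzyme viperin (-0.80), Zbp1, a sensor of Z-form nucleic acid (-0.74), and Isg15, a ubiquitin-like protein (-0.60), were among them. Isg15 was at 453, 606, 360.4 and 458 CPM against 576, 711, 692 and 626 CPM. The microglia value of shNC 2 exceeded the macrophage value of shNC 1, so the gap was one within libraries and not between all of them. Ifit3 and Stat2 were at 0.01 and 0.01 and were not called, although Stat2 was higher in the Ms4a7-free cells (0.51).

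Chemokine genes separated into those of each class. Of 19 tested, 4 were higher in microglia-gated and 8 in macrophage-gated cells (median -0.40, but -0.10 without shSELP 1 and -0.22 without shNC 2). Cxcl13, a B cell attractant, had 67.0, 106, 146 and 32.7 CPM in microglia-gated and 1.04, 1.31, 1.08 and 0.208 CPM in macrophage-gated cells (6.37). Ccl4, an attractant of monocytes and T cells, was at 3286, 3124, 5822 and 3302 CPM against 2298, 1227, 1488 and 984 CPM. Every microglia value was above every macrophage value, and the difference was 1.28 ± 0.19 (edgeR quasi-likelihood adjusted p = 0.0012, 4 of 4 libraries) and 1.88 with cycling cells left out. Ccl3, a related ligand, differed by 1.06 (1.71 without cycling cells) and Ccl12, a monocyte attractant close to Ccl2, by 1.16. On the other side stood the neutrophil attractants Cxcl1 (-0.99; not called without shNC 2, at -0.96 and an edgeR adjusted p of 0.069), Cxcl2 (-1.10) and Cxcl3 (-1.86), with Cxcl9 (-0.78), an interferon-gamma-induced T cell attractant, and Cxcl16 (-0.47). Cxcl2 was at 8479, 7062, 11069.7 and 10439.5 CPM in macrophage-gated and 6065, 3528, 3602 and 5785 CPM in microglia-gated cells. The classes did not overlap, and with the Ms4a7-positive cells left out the difference was -3.09. Ccl2, Ccl7 and Cxcl10 were not called, at 0.17, 0.09 and -0.03, but Ccl7 was called lower in the Ms4a7-free cells (-0.94). Cxcl10 was called in opposite directions by group, at 0.32 in the shNC libraries alone and at -0.39 in the shSELP libraries alone. Ccl8 and Pf4, at 0.29 and 0.01 with all cells and not called, were called lower in the Ms4a7-free cells, at -3.47 and -5.10. With cells past both macrophage limits left out they were called at -2.20 and -3.50. With 3 microglia UMIs per 10000 Ccl8 was called at -0.74. In the shNC libraries alone both were called higher, at 0.67 and 0.44.

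Of the chemoattractant receptors, Cx3cr1 was the only called member on the microglia side among 12 tested, and 5 were higher in macrophage-gated cells. These were Ccr2, Ccr1, Fpr2, a formyl peptide receptor (-1.38), Ccrl2, an atypical receptor that binds chemerin (-0.70), and Cxcr4 (-0.65), the last not called without shNC 2 (-0.55, edgeR adjusted p = 0.09), after thinning to 2000 UMIs (-0.36, 0.42), without the block (0.14) or in the shSELP libraries alone (0.089). Inflammatory cytokine genes had 8 of 18 higher in macrophage-gated and 2 in microglia-gated cells (median -0.31). Il1b was at 8811, 8458, 10654 and 10012 CPM in macrophage-gated and 6166, 3797, 3624 and 5541 CPM in microglia-gated cells, with no overlap, and differed by -1.13 ± 0.14 (edgeR quasi-likelihood adjusted p = 0.00043, 4 of 4 libraries). Its antagonist Il1rn went with it (-1.15), as did Ptgs2, the inducible cyclooxygenase (-0.78). Il1a was alike in both classes, at 973, 889, 1348 and 1157 CPM against 939, 897, 1254 and 1155 CPM. Tnf was on the microglia side (0.51), but was not called without shSELP 2 (0.43, edgeR adjusted p = 0.074), in the shNC libraries alone (0.21, 0.14) or without the block (0.56, 0.15).

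Genes of arginine use and of alternative activation, some of them read in many tumor studies as marks of suppressive macrophages, were called in 8 of 15 higher in macrophage-gated and in 3 higher in microglia-gated cells (median -0.54). Nos2, the inducible nitric oxide synthase, uses arginine and is linked by the study to a pro-inflammatory state instead. It was at 151, 132, 144 and 263 CPM in macrophage-gated and 90.6, 29.8, 24.0 and 104 CPM in microglia-gated cells. No values overlapped, and the difference was -1.73 ± 0.24 (edgeR quasi-likelihood adjusted p = 0.00096, 4 of 4 libraries). The CD11b+ libraries, described further on, held both directions for it. Il10 was at 166, 135, 93.3 and 112 CPM against 143, 105, 38.0 and 109 CPM, ranges that overlapped. Its difference of -0.54 had an edgeR quasi-likelihood adjusted p of 0.042 and 4 of 4 libraries in that direction, but it was not called without shNC 2 (edgeR adjusted p = 0.14), without the block (0.37), with cells thinned to 2000 UMIs (0.23), without TMM (0.091) or in the shSELP libraries alone (0.1). It widened with 3 microglia UMIs per 10000 (-1.39, adjusted p = 0.0059) and with the Ms4a7-positive cells left out (-4.98, 7.5e-06). On the microglia side was Sat1, which acetylates polyamines, at 0.55, not called without shNC 2 (0.53, edgeR adjusted p = 0.057) or in the shNC libraries alone (0.32, 0.077).

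The study's own pathway was present in both classes. Selplg (chr5:113818536-113832644, mm10), which encodes PSGL-1, the main ligand of P-selectin on leukocytes, was at 208, 238, 558 and 294 CPM in microglia-gated and 121, 109.9, 104 and 96.9 CPM in macrophage-gated cells. The classes did not overlap, and shSELP 1 held the highest microglia value while the macrophage values were even. The log2 difference was 1.36 ± 0.21 (edgeR quasi-likelihood adjusted p = 0.0016, 4 of 4 libraries), 1.07 without shSELP 1 and 2.08 with the Ms4a7-positive cells left out. Cd44, the hyaluronan receptor and an alternative P-selectin ligand, ran the other way, at 203, 223, 243 and 233 CPM in macrophage-gated and 134, 109.7, 99.5 and 133 CPM in microglia-gated cells, with no overlap (-1.04 ± 0.11). Cd24a, a further ligand, had 17.4, 31.5, 38.0 and 25.8 CPM against 2.78, 5.96, 7.84 and 9.03 CPM and differed by -2.24. Selp itself had 5 UMIs over both classes and was not tested. Of 16 genes of ligands, selectins and the enzymes that make the ligands active, 11 were tested, 3 were higher in microglia-gated and 5 in macrophage-gated cells, and the median was 0.08. Its sign was not fixed, as it turned under 8 alternatives, among them a microglia gate of 5 UMIs (-0.31), cycling cells left out (-0.43) and the shNC libraries alone (-0.07). The enzymes were divided. The sialyltransferase St3gal6 (2.44; 1.81 in the shNC libraries) and the branching enzyme Gcnt1 (1.10), which builds the core carrying sialyl Lewis x, were higher in microglia-gated cells, and the sialyltransferase St3gal4 (-1.04) and the tyrosine sulfotransferase Tpst1 (-0.66) in macrophage-gated cells. After each cell was thinned to 2000 UMIs, St3gal4 and Tpst1 were not called (edgeR adjusted p = 0.086 and 0.27). Tpst2 and B4galt1 were not called, at 0.08 and 0.22.

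Complement genes were called in 7 of 15 higher in microglia-gated and 5 in macrophage-gated cells (median 0.29). All 3 chains of C1q were on the microglia side. C1qa was at 8012, 8688, 9392 and 8681 CPM against 6159.7, 5002, 5359 and 5099 CPM, with no overlap (0.57), C1qc differed by 0.48 and C1qb by 0.31. C1qb was not called without shNC 2 (0.29, edgeR adjusted p = 0.062), without shSELP 2 (0.30, 0.057), in the shNC libraries alone (0.21, 0.079) or with the Ms4a7-positive cells left out (0.26). C4b (2.11), C2 (2.01) and the regulator Serping1 (2.64) lay on the same side. C3, on which the pathways converge, was at 274, 332, 408 and 504 CPM in macrophage-gated and 205, 186, 188 and 309.8 CPM in microglia-gated cells (-0.88). The factors of the alternative pathway, Cfb (-1.03) and Cfp (-0.84), went with it but were not called without the block (edgeR adjusted p = 0.062 and 0.097).

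Of 14 genes of phagocytosis, 7 were higher in microglia-gated and 2 in macrophage-gated cells (median 0.49, and 0.32 without shSELP 1). Gas6 (2.86) and Pros1 (2.30), which bridge phosphatidylserine to TAM receptors, were among them, as was Mertk at 0.52, which was not called without shNC 2 (0.54, edgeR adjusted p = 0.075), without shSELP 2 (0.55, 0.057), without the block, in the shNC libraries alone (0.31, 0.12) or with cells under 10000 UMIs left out (0.20, 0.2). Cd47, the signal against being eaten, was on the macrophage side (-0.64). Of the Fc receptors, Fcgrt, which recycles IgG, was higher in microglia-gated (1.01) and the inhibitory Fcgr2b (-0.45) in macrophage-gated cells, where 1 and 2 of 6 were called in the 2 directions (median -0.13). Toll-like receptor genes split evenly, 4 and 4 of 13 (median -0.22), with Cd180 (1.29) and its partner Ly86 (0.95), which temper the response to lipopolysaccharide, on the microglia side and Cd14 (-0.78), which promotes it, on the macrophage side. Ly86 was at 1367, 1514, 1781 and 1411 CPM against 866, 842, 581 and 638 CPM and Cd14 at 1634, 1232, 1296 and 1526 CPM against 2067, 1872, 2605 and 2509 CPM. For each of these genes all 4 libraries moved the same way.

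C-type lectins and scavenger receptors lay mainly on the macrophage side, 9 of 16 against 2 (median -0.52, and -2.92 without Ms4a7-positive cells). Clec4d (-1.78) and Clec4e (-1.88), which pair as receptors for glycolipid, and Clec12a (-0.90), an inhibitory receptor for uric acid crystals that went to -1.66 with 3 microglia UMIs per 10000 and to -4.32 without Ms4a7-positive cells, were among them. Genes of macrophages of the brain's borders were few and low, with 9 of 12 tested, 1 higher in microglia-gated and 4 in macrophage-gated cells, and a median of -0.10 that turned to 0.02 without TMM. In the fit without Ms4a7-positive cells the median was -3.34, with 5 of 7 higher in macrophage-gated cells and none in microglia-gated cells. Mrc1, the mannose receptor, was at 64.7, 33.9, 37.3 and 31.1 CPM against 41.0, 50.1, 47.2 and 25.6 CPM and not called, but in the Ms4a7-free cells it differed by -2.92. F13a1, a coagulation transglutaminase of monocytes, differed by -1.47.

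Colony-stimulating factor genes placed both Csf1 and its receptor Csf1r (0.81) on the microglia side, and the receptor chains Il3ra (-0.96) and Csf2rb2 (-0.62) on the macrophage side, 2 and 4 of 7. The list median of -0.37 turned to 0.32 without the filter on low counts. Csf1r was at 613, 629, 1307 and 887 CPM against 419, 376, 461 and 471 CPM. The microglia values of shSELP 1 and shSELP 2 were above those of both shNC libraries. Integrin genes were called in 3 and 3 of 12 (median -0.16, and 0.11 after thinning to 2000 UMIs). The laminin-binding subunit Itga6 (1.74) and Itgb5 were on the microglia side. Itga4 (-0.91; -1.58 with 3 microglia UMIs per 10000), a chain of the receptor for the endothelial ligand Vcam1, was on the macrophage side. Purinergic genes, with 3 and 3 of 13 called and a median of -0.07, divided the adenosine receptors, Adora3 (2.69) on the microglia side and Adora2a (-1.74) and Adora2b (-1.29) on the macrophage side. The purinergic median turned to 0.04 without TMM, to 0.16 after thinning to 2000 UMIs, to 0.07 in the shSELP libraries alone and to 0.04 with cycling cells left out. Of the metalloproteinases and their inhibitors, 2 and 3 of 12 were called (median 0.28). This median had no fixed sign, at -0.19 without shNC 1, -0.67 in the shSELP libraries alone and -1.18 with the Ms4a7-positive cells left out. Timp2, an inhibitor, was at 495, 797, 783 and 456 CPM against 178, 196, 255 and 180.5 CPM, with no overlap (1.50).

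Checkpoint and costimulation genes were called in 5 higher in microglia-gated and 6 in macrophage-gated cells of 14 tested (median 0.06). The sign of this median was not fixed, at -0.35 with the Ms4a7-positive cells left out and -0.10 in the shNC libraries alone. Lag3, an inhibitory receptor that microglia also express, was at 40.8, 50.7, 107 and 61.4 CPM against 10.4, 3.93, 4.88 and 2.29 CPM. The classes did not overlap, and the difference of 3.46 was 2.64 in the shNC and 4.47 in the shSELP libraries. Vsir, which encodes the checkpoint VISTA, differed by 0.79. On the macrophage side stood Cd274, which encodes PD-L1, at 257, 283, 235 and 265 CPM against 211, 184, 141 and 228 CPM (-0.57), and the costimulatory receptor Cd40 (-1.23). Cd72, an inhibitory lectin of B cells and myeloid cells, turned its direction. It was at 642, 535, 261 and 393 CPM against 396, 314, 156 and 142 CPM and called higher in microglia-gated cells (0.80), but with the Ms4a7-positive cells left out it was called lower (-0.54), and without the block it was not called (0.75, edgeR adjusted p = 0.18). Its level in Ms4a7-positive microglia-gated cells was 752, 633, 381 and 503 CPM, above both of the other sets, against 226, 278, 139.8 and 119 CPM in those without Ms4a7.

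Glycolysis and hypoxia genes were lower in microglia-gated cells in 14 of 23, with none higher and a median of -0.41. The library medians of the CPM ratio were 0.02, -0.10, -0.70 and -0.44, so the gap lay chiefly in the shSELP libraries, and without shSELP 1 9 genes were called. In the test of the groups 18 of the 23 had an unadjusted edgeR p under 0.05, none of them called, against 15 of 26 microglia identity genes, 12 of 20 immediate early and heat-shock genes and 852 of 9600 genes. Vegfa, the vascular growth factor, was at 341, 319, 389 and 466 CPM in macrophage-gated and 261, 134, 139.7 and 292 CPM in microglia-gated cells. The classes did not overlap, and the difference was -1.05 ± 0.16 (edgeR quasi-likelihood adjusted p = 0.0014, 4 of 4 libraries). Tpi1, which encodes a glycolytic isomerase, differed by -0.56 and was not called without the block (edgeR adjusted p = 0.11). Immediate early and heat-shock genes went the other way, 8 of 20 higher in microglia-gated and 3 in macrophage-gated cells (median 0.33). Without shSELP 1 these were 6 and 4, with a median of 0.14. Egr1 (2.76), Jun (1.27) and Atf3 (1.22), which many cells turn on within minutes of a stimulus and which also respond to tissue dissociation, were among them, and Fos and Dusp1 were not called (0.30 and -0.15). Jun was at 486, 474, 1226 and 603 CPM against 275, 235, 265 and 214 CPM, with its highest value in shSELP 1 microglia-gated cells. What part handling of the tissue had in this was not tested.

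Cell cycle genes were higher in microglia-gated cells in 20 of 25, with none higher in macrophage-gated cells and a median of 0.95. The classes did not overlap for 1 of the 25, and Mki67 was at -0.14. Markers of GL261 tumor cells, described below, were also higher there, at 126, 132, 23.3 and 34.3 CPM against 41.0, 35.4, 16.8 and 26.0 CPM. Their part in the cell cycle difference was not tested. Stmn1, a microtubule regulator of dividing cells, was at 161, 164, 86.8 and 46.2 CPM against 70.9, 55.9, 16.3 and 27.7 CPM. Both classes had more of it in the shNC libraries, and the microglia value of shSELP 2 lay below both shNC macrophage values. Its call was lost without the block (adjusted p = 0.081 by edgeR's quasi-likelihood test, 1.29). The share of cells that held Mki67 or Top2a UMIs was 43.4, 57.4, 23.4 and 43.1% in microglia-gated and 40.5, 37.9, 46.3 and 44.6% in macrophage-gated cells. It was 52.6, 69.4, 48.0 and 58.7% in the Ms4a7-positive microglia-gated cells, and 20.3, 36.6, 10.4 and 20.5% in those without Ms4a7, but the sets differ in depth, and the Ms4a7-positive cells were the deepest. With each cell thinned to 2000 UMIs the shares were 17.1, 16.1, 11.4 and 11.6% with Ms4a7, 7.35, 11.3, 3.56 and 1.22% without it and 12.2, 11.2, 13.1 and 12.8% in macrophage-gated cells, so the Ms4a7-free cells stayed lower in 3 libraries and the Ms4a7-positive cells had no common direction. Over all microglia-gated cells the thinned shares were 14.4, 14.4, 6.32 and 7.39%. These were above those of macrophage-gated cells in both shNC libraries and below them in both shSELP libraries. With the Ms4a7-positive cells left out, 11 members were higher in microglia-gated and 1, Mki67 itself, in macrophage-gated cells (-1.13).

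Some abundant genes were alike in both classes. The 95% interval of the log2 difference lay within -0.25 to 0.25 for 434 genes (4.52%), of which the 10 most abundant were Tmsb4x, Malat1, Actb, B2m, Eef1a1, Fau, Rps24, Rpl23, Fcer1g and Rps20. For Actb, the cytoskeletal actin, the interval was -0.23 to -0.03, and for Fcer1g, the signalling chain of Fc receptors, it was -0.21 to 0.02. Fcer1g was at 4255, 4103, 3746 and 4026 CPM against 4269, 3949, 3763 and 3915 CPM. When the Ms4a7-positive cells were left out it was called lower, at -0.54, as were Actb (-0.35) and B2m (-0.27).

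**Figure D3:**
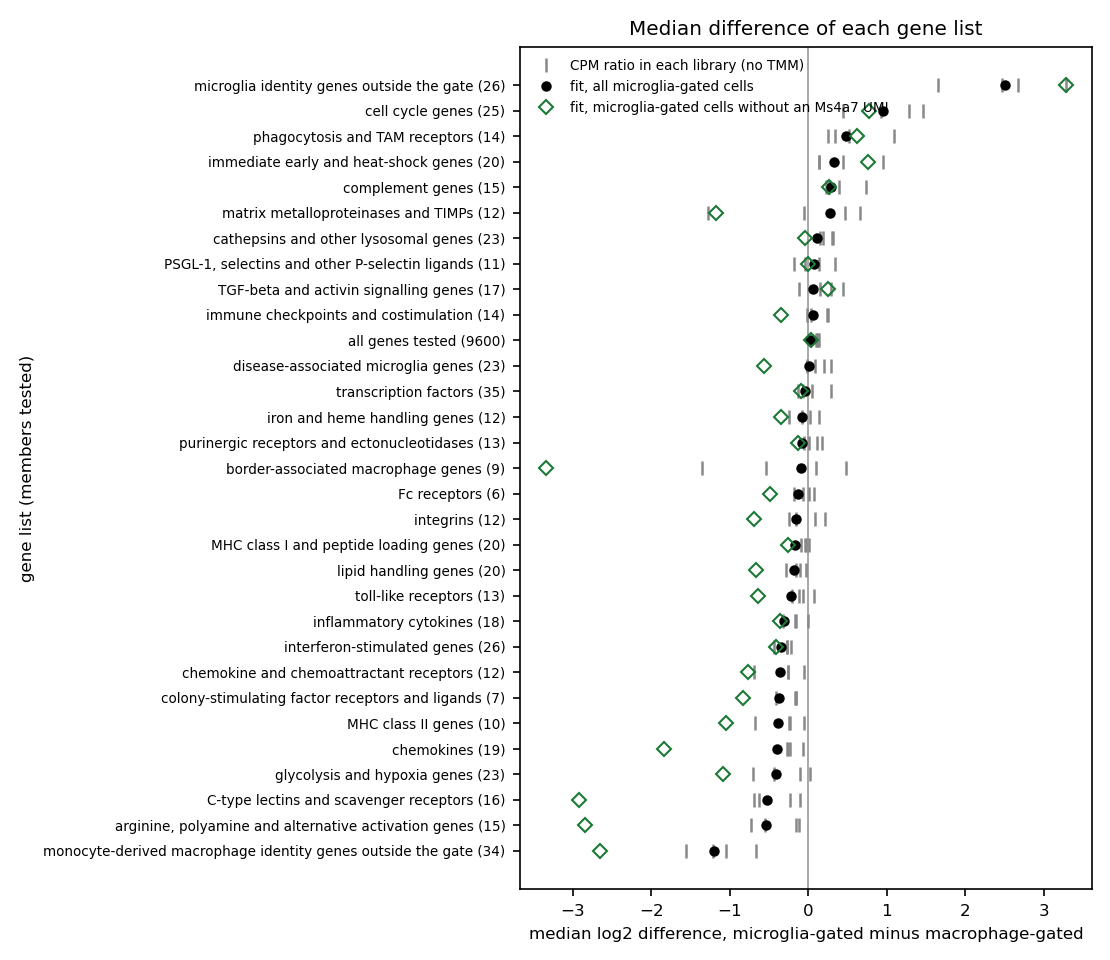
Median log2 difference (microglia-gated minus macrophage-gated) of the members tested of 30 gene lists, with the number tested in brackets; filled points are the fit on all microglia-gated cells, open diamonds the fit without Ms4a7-positive cells, and ticks the CPM ratios of each library without TMM. The medians ran from -1.20 for macrophage identity genes to 2.51 for microglia identity genes; those of border-associated, transcription factor, purinergic and iron genes changed sign without TMM.

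Markers of other cell types were counted in the same sums. The 7 mural cell and fibroblast markers, led by Dcn, summed to 162, 7.85, 33.6 and 27.1 CPM in microglia-gated and 4.87, 3.67, 3.25 and 3.96 CPM in macrophage-gated cells, and to 748, 13.7, 57.1 and 86.6 CPM in microglia-gated cells without Ms4a7. The microglia-gated sum was the higher in each library, by most in shNC 1 and by least in shNC 2. The 8 markers of GL261 tumor cells, led by Prph, summed to 126, 132, 23.3 and 34.3 CPM against 41.0, 35.4, 16.8 and 26.0 CPM, with 3 of 6 tested called higher in microglia-gated cells. The shNC libraries held more of them than the shSELP libraries in microglia-gated cells, and in those without Ms4a7 the sums were 458, 390.1, 33.5 and 74.5 CPM. The 6 natural killer cell markers, led by Gzma, were at 3.89, 66.9, 1.47 and 3.99 CPM against 5.56, 4.98, 3.25 and 2.92 CPM, so shNC 2 alone stood out, also without Ms4a7 (113 CPM). The 8 neutrophil markers, led by Csf3r, were at 35.6, 47.4, 103 and 73.1 CPM against 68.1, 83.4, 144 and 113 CPM, the 7 dendritic cell markers, led by Fscn1, at 38.6, 47.7, 109 and 73.6 CPM against 22.2, 21.5, 20.1 and 8.96 CPM, and the 6 oligodendrocyte markers, led by Cnp, at 72.5, 92.1, 188 and 87.1 CPM against 58.4, 93.4, 77.6 and 64.8 CPM. Csf3r itself ran against the neutrophil sum, at 33.1, 42.5, 76.0 and 60.6 CPM in microglia-gated and 31.6, 37.0, 33.6 and 44.6 CPM in macrophage-gated cells. The 6 endothelial markers, led by Pecam1, were at 103, 153, 93.2 and 107 CPM against 99.1, 152, 111 and 139 CPM (229.9, 282, 112 and 69.8 CPM without Ms4a7) and the 6 astrocyte markers, led by Aldoc, at 65.0, 55.8, 77.2 and 77.3 CPM against 36.2, 32.8, 38.0 and 49.2 CPM. Aldoc itself was at 40.6, 26.3, 11.5 and 34.5 CPM against 34.4, 30.2, 26.6 and 44.0 CPM, so it ran against the astrocyte sum outside shNC 1. The 6 B cell and plasma cell markers, led by Cd79b, and the 7 T cell markers outside the gate, led by Trbc2, stayed under 17 CPM in each of these sums, while in the cells without Ms4a7 they reached 22.2 CPM in shSELP 1 and 23.5 CPM in shNC 2, in that order. No marker of any of these lists was at 0 in all 8 sums. With cells that held 3 or more UMIs of such markers left out, 2085 genes were called, and the part of these markers in the remaining difference was not tested.

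Promoter sequences of the genes that differed at least 2-fold were searched on both strands for 8 motifs of factors named above or of common signals. The window was the 300 bases from 250 before to 50 after the RefSeq gene start. Promoters on 1 chromosome were left out before counting, those of Egr1 and Smad7 among them. The search thus covered 32851 promoters, and the shares below describe only the promoters kept. PU.1 (GAGGAAGT) was in 3.20% of these promoters and in those of 4.22% of the 7568 tested genes with a promoter kept. It was in those of 4.53% of the 375 that were higher in microglia-gated cells and of 9.03% of the 144 that were higher in macrophage-gated cells. In the same order, MEF2 (CTANNNATA) was in 7.24, 4.85, 5.60 and 8.33%, NF-kB (GGGANTTTC) in 1.11, 1.19, 2.40 and 2.78%, and AP-1 (TGANTCA) in 7.81, 6.12, 5.33 and 15.3%. The interferon factor motif IRF (GAAANNGAA) was in 8.56, 9.45, 7.73 and 16.0%, CRE (TGACGTCA) in 1.79, 3.85, 3.73 and 1.39%, SMAD (GTCTAGAC) in 0.213, 0.291, 0 and 0.694%, and SRF (CCATATATG) in 0.174, 0.0925, 0.267 and 0.694%. No test was made of these shares, the motifs were chosen with the expression results known and 4 of them shortened by 1 letter after a first search, and a match is not evidence of binding. The promoters of 1 gene with the MEF2 motif and of 3 with the NF-kB motif, from both sides of the difference, are printed with the match in capitals because they belong to a receptor, a growth factor and chemokines described above. They are from RefSeq, mouse build GRCm38.p6. That of Cx3cr1 is chr9:120068247-120068546 on the minus strand, that of Csf1 chr3:107760420-107760719 on the minus strand, that of Cxcl2 chr5:90903649-90903948 and that of Cxcl3 chr5:90785851-90786150, both on the plus strand. In Csf1 the motif is on the other strand.
Cx3cr1: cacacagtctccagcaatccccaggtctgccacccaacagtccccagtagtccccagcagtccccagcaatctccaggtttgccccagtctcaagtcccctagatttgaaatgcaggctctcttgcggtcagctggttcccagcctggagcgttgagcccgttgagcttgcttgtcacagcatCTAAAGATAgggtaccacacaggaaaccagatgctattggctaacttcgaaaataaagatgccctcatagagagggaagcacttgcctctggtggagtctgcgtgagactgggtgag
Csf1: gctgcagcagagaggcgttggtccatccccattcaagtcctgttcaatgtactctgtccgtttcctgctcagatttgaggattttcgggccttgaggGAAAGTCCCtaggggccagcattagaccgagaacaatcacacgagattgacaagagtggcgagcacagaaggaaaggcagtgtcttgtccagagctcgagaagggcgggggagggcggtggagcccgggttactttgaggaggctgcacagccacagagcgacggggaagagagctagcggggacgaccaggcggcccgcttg
Cxcl2: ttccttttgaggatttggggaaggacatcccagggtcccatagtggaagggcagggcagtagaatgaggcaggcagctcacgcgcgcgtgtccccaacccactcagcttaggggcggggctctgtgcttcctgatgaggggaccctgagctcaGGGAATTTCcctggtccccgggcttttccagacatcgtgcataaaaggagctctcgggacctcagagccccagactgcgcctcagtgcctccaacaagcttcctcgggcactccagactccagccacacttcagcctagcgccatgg
Cxcl3: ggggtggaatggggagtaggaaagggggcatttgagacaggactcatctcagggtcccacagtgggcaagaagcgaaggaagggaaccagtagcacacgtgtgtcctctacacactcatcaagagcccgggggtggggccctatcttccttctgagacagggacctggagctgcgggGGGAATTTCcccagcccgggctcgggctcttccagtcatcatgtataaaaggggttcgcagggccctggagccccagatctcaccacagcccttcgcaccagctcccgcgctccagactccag

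Whether the knockdown in the tumor cells changed the classes unequally was tested as the difference between the shSELP and the shNC class differences, with 2 libraries each. Of 9600 genes, 3 were called (0.0312%), 2 with a larger microglia-minus-macrophage difference in shSELP tumors (0.0208%) and 1 with a smaller one (0.0104%), and 852 had an unadjusted p under 0.05. Ccl12 was at 1068, 1336, 1272 and 1053 CPM in microglia-gated and 667, 781, 366 and 289 CPM in macrophage-gated cells. The microglia values were even, and the macrophage values were lower in both shSELP libraries, so the gap widened (1.08 ± 0.11, edgeR quasi-likelihood adjusted p = 0.021). Egr1 was at 311, 311, 1125 and 539 CPM against 62.9, 76.6, 92.2 and 45.4 CPM. Here the macrophage values overlapped between the groups and both shSELP microglia values were above both shNC values, most of all in shSELP 1 (1.41 ± 0.15, edgeR quasi-likelihood adjusted p = 0.021), so that the class difference of 2.76 was 2.04 in the shNC and 3.46 in the shSELP libraries. Gpnmb was at 208, 447, 125 and 149 CPM against 390.0, 843, 489 and 599.7 CPM. Its microglia values were lower in both shSELP libraries than in both shNC libraries while its macrophage values overlapped between the groups (-1.10 ± 0.12, edgeR quasi-likelihood adjusted p = 0.021). In each of these 3 genes both libraries of a group lay on the same side of those of the other group in their class ratio. The CD11b+ libraries, 1 per group and without a test, had log2 ratios in shNC and shSELP of 0.54 and 1.02 for Ccl12, which also widened, 1.94 and 1.85 for Egr1, which did not, and -1.12 and -0.93 for Gpnmb, which moved the other way.

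The number of calls depended on single libraries. Leaving out shNC 1 or shNC 2 left 0 genes called by edgeR (439 and 646 at an unadjusted p under 0.05), while 4 were called without shSELP 1 and 159 without shSELP 2. DESeq2 called 10 genes, a block for the replicate number 0 (679 at an unadjusted p under 0.05), and the fit with the Ms4a7-positive cells left out 256. With cells holding markers of other types left out 0 genes were called, and with cycling cells left out 1, none of the 3 above. The log2 response differences of Ccl12, Egr1 and Gpnmb were then 0.97, 1.40 and -1.32 with the first cells left out and 1.63, 1.16 and -1.59 with the second, with the direction kept in each. The share of Ms4a7-positive cells in the microglia gate was itself lower in both shSELP libraries, at 34.7 and 59.3% against 71.7 and 63.6%, most of all in shSELP 1. Differences between groups therefore cannot be told apart from the makeup of the gate. Of the study's genes, those tested and named here were not called, Selplg at 1.01 ± 0.24 (unadjusted edgeR p = 0.0022), Cd44 at -0.25 ± 0.20 (0.25), Nos2 at -0.49 ± 0.45 (0.31) and Tgfb1 at 0.13 ± 0.16 (0.43).

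**Figure D4:**
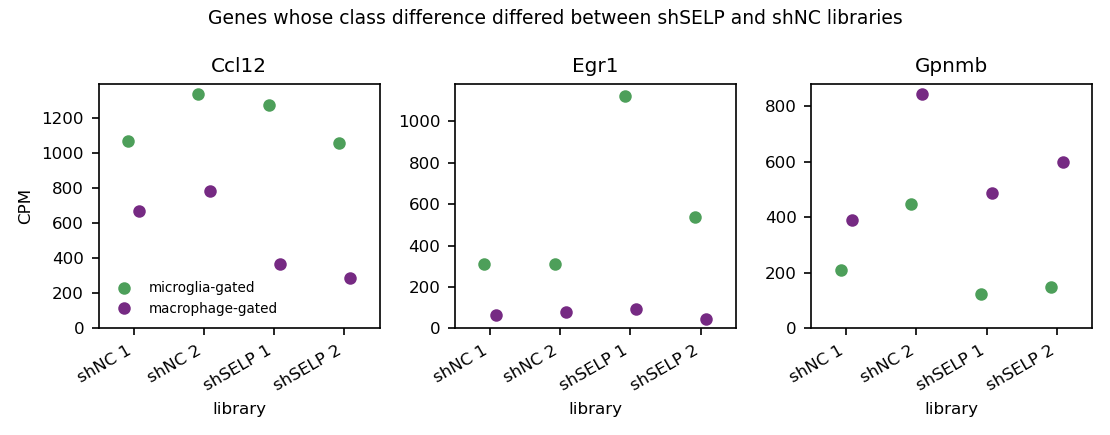
CPM of Ccl12, Egr1 and Gpnmb in microglia-gated and macrophage-gated cells of each of the 4 libraries. Egr1 ran from 311 to 1125 CPM in microglia-gated and from 45.4 to 92.2 CPM in macrophage-gated cells.

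The share of microglia-gated cells among the gated cells was 48.7% (exact 95% interval 44.2 to 53.2) in shNC 1, 38.3% (34.1 to 42.7) in shNC 2, 68.6% (64.4 to 72.6) in shSELP 1 and 41.0% (36.6 to 45.4) in shSELP 2, intervals that cover counting error only. The shSELP 2 value lay between the shNC values, and shSELP 1 alone was above them. The mean was 54.8% ± 19.5 (SD, n = 2) in shSELP and 43.5% ± 7.35 (SD, n = 2) in shNC tumors, a difference of 11.3 percentage points with a two-sided exact permutation p of 0.667, where 0.33 is the smallest p that 2 libraries against 2 allow. With the Ms4a7-positive cells left out the difference was 20.6 points (exact permutation p = 0.33), and with cells under 10000 UMIs left out it was 0.571 points (p = 1). In the CD11b+ libraries the share ran the other way, at 33.5% in shNC and 18.4% in shSELP. Without shSELP 1 the shares left were 48.7, 38.3 and 41.0%.

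The same gate was applied to the CD11b+ libraries, which were counted in a separate table, where 312 microglia-gated and 618 macrophage-gated cells were found among 2862 cells of the CD11b+ shNC library and 195 and 865 among 2862 of the CD11b+ shSELP library. With 1 library per group no test was made. Of the 2241 genes called in the mix, all were present and 1856 (82.8%, exact 95% interval 81.2 to 84.4) differed in the same direction in both CD11b+ libraries, 86.0% of those higher in microglia-gated and 79.4% of those higher in macrophage-gated cells, against 39.4% of the genes not called. The 702 genes with at least a 2-fold difference kept their direction in 88.5%. The genes are not independent of each other, and these shares are a description. Cx3cr1 had log2 CPM ratios of 1.35 and 1.85 in the CD11b+ shNC and the CD11b+ shSELP library, Selplg 1.06 and 1.24, Cst7 3.86 and 4.15, Ly6c2 -1.82 and -3.53 and Il1b -0.84 and -1.14. Nos2 did not keep its direction in both, at 1.01 in the CD11b+ shNC and -0.99 in the CD11b+ shSELP library. Of the lists, microglia identity genes had a median ratio of 1.91 and 1.88, macrophage identity genes -0.90 and -1.36, and cell cycle genes 0.94 and 1.16. Compared with the same ratios of the mix libraries, also without TMM, immediate early and heat-shock genes turned, at -0.08 and -0.05 against 0.13, 0.14, 0.95 and 0.44. Class I and peptide loading genes had 0.13 and 0.09 against -0.09, -0.03, 0.01 and -0.04. Metalloproteinases and their inhibitors (-0.16 and -0.05), P-selectin ligands (-0.13 and -0.17) and glycolysis and hypoxia genes (0.27 and -0.20) showed no clear turn, since the mix libraries held both signs.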

How the data were processed

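Single-cell libraries of whole tumors (shNC 1, shNC 2, shSELP 1 and shSELP 2) and of CD11b+ cells were read from 2 deposited tables whose values are UMI counts per gene and cell. According to the submitters' processing notes these were made with Cell Ranger 1.3 and mm10, and 8 sequencing entries per library were merged. The deposited mix held 9172 cells with 22945972, 22626413, 17398121 and 25589350 UMIs per library, and medians of 9015, 7579, 5887 and 9388 UMIs per cell. Counts were summed per library and class, leaving out the 9 genes of the gate, and the sums held 1843318 to 4798785 UMIs, which limits the precision of genes with few of them.

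Differences were tested with edgeR 4.0.16 (limma 3.58.1, R 4.3.3), by quasi-likelihood with TMM factors, the filter of edgeR's design-based function and a block for library, and adjusted by Benjamini-Hochberg over all genes tested at 0.05. The response difference was the interaction of class and group in the same fit. Pairing comes from the library itself, and the classes of a library deviated together (correlation 0.281, 0.307, 0.283 and 0.271 over 9600 genes). DESeq2 1.42.0 served as an alternative. Sums, shares and plots were made in Python 3.11.15 (pandas 2.3.3, numpy 2.4.6, matplotlib 3.10.9, and for exact intervals scipy 1.17.1). The fits were also run on simulated data as a check of the code.

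The share of microglia-gated cells was compared by an exact permutation of libraries. The other alternatives were leaving out each library in turn, the fit without a block, no filter, gates of 5 microglia UMIs or of 4 Ms4a7 and 10 Lyz2 UMIs, cells thinned to 2000 UMIs (8 microglia-gated and 13 macrophage-gated cells below it left out), and leaving out cells over 10% mitochondrial UMIs, Ms4a7-positive cells, cycling cells or cells with 3 UMIs of markers of other types. Leaving out cells past both macrophage limits, a gate of 3 UMIs per 10000, leaving out cells under 10000 UMIs the fit without TMM and the share of cycling cells after thinning were added after results had been seen. The rule for cells and the lists of genes were chosen with earlier results of these data known.

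Genes were named by a rule: members of 30 lists as counts with examples, the 15 largest called differences in each direction of at least 100 CPM with no overlap of the classes, the called response differences, the 10 most abundant genes with an interval within -0.25 to 0.25, the study's own genes and the gate genes. Genes given as examples of a cell type's markers were chosen as the most abundant of their list. Coordinates are from GENCODE M21 (mm10), with 1 place for 19989 of 20300 genes.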

Additional observations from a re-analysis of the deposited data

Results flagged for a closer look

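Over 79 groups of 4 libraries each, the library farthest from the rest was compared with the range of all 4, a gap over 0.83 of the range being set aside, which chance gives in about 1 of 20 groups. The 3 gaps past it were those of the class ratio of Sparc (0.854), of the class ratio of Cd24a (0.835) and of the median of the colony-stimulating factor list (0.959), fewer than chance would give. Differences between the groups came from the test of the response: Gpnmb at -1.10, Ccl12 at 1.08 and Egr1 at 1.41 log2. What made any of these values stand out was not tested.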

How the results depend on the processing

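The count of 2241 genes with a class difference was 1337 by DESeq2, 874 of 4869 genes tested after each cell was thinned to 2000 UMIs, and 702 with a 2-fold limit added, a limit that lowers it by construction. Without the block for library, which pairs the classes, it was 1354. With 1 library left out it ran from 1235 to 2077. Under the other alternatives the count stayed within 1.5 times of 2241. With 1 library left out, the lone library of a group was taken to vary like the others, and fewer libraries were fitted. The cause of the other changes was not tested. No cell held over 10% mitochondrial UMIs, so that limit changed nothing.

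The 3 genes with a response difference became 10 by DESeq2, 249 without the filter on low counts, 15 after thinning, 19 with a microglia gate of 5 UMIs, 256 with the Ms4a7-positive cells left out, 140 with cells past both macrophage limits left out, 69 with 3 microglia UMIs per 10000, 21 with cells under 10000 UMIs left out, 5 with a stricter macrophage gate, 1 with cycling cells left out and 0 with cells holding markers of other types left out. With 1 library left out the count ran from 0 to 159. The cause of these changes was not tested. Libraries of the 2 groups share a replicate number, and the labels do not say whether it stands for a shared preparation. With a block for that number 0 genes were called. The class ratios of shNC 1 and shSELP 1 deviated from their group means with a correlation of -0.0761 over 9600 genes.

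Of the named genes in each alternative, the class difference kept its direction and its side of the threshold in 3712 cases, crossed the threshold outward in 60 and inward in 75, and turned in 129, most of them called in neither fit. For the response difference these were 155, 19, 9 and 6. The cause was not tested. With the Ms4a7-positive cells left out the turned values were Tmsb4x -0.22, Eef1a1 0.0694, Fau 0.0394, Rps24 0.0998, Rpl23 0.0728, Ccl7 -0.94, Ccl8 -3.47, Cd72 -0.54, Ctsb -0.22, Ctsz -0.14, Cxcl10 0.34, Irf8 0.0774, Lamp2 -0.0457, Pf4 -5.10, Tpst2 -0.00135, Tyrobp -0.15. With the 485 cells past both macrophage limits left out the turned values were Tmsb4x -0.14, Eef1a1 0.0837, Fau 0.0683, Rps24 0.12, Rpl23 0.0667, Ccl7 -0.63, Ccl8 -2.20, Cd72 -0.12, Ctsb -0.17, Ctsz -0.0331, Cxcl10 0.31, Irf8 0.0868, Pf4 -3.50, Tyrobp -0.11. After thinning to 2000 UMIs the turned values were Malat1 0.16, Eef1a1 0.0683, Rps24 0.0122, Ccl2 -0.0396, Dusp1 0.0973, Il1a 0.12, Irf8 0.13, Spi1 0.13. With cycling cells left out the turned values were Malat1 0.12, Eef1a1 0.0355, Fau 0.00467, Rps24 0.0382, Ccl7 -0.13, Ccl8 -0.47, Ifit3 -0.0872, Irf8 0.0412, Stat2 -0.14. In the shSELP libraries alone the turned values were Malat1 0.0219, Ccl8 -0.13, Ctsb -0.0714, Ifit3 -0.12, Irf8 0.0983, Pf4 -0.50, Spi1 0.0718. With 3 microglia UMIs per 10000 the turned values were Malat1 0.0136, Eef1a1 0.0474, Fau 0.0516, Rps24 0.0516, Ccl7 -0.37, Ccl8 -0.74, Irf8 0.0330, Pf4 -0.27. Without TMM the turned values were Malat1 0.0231, Eef1a1 0.0963, Fau 0.0349, Rps24 0.0952, Rpl23 0.0320, Fcer1g 0.0244, Cxcl10 0.0894, Il1a 0.0393, Irf8 0.12, Mrc1 0.0194, Spi1 0.0570. With a microglia gate of 5 UMIs the turned values were Eef1a1 0.0224, Rps24 0.0248, Ccl7 -0.23, Ccl8 -0.0196, Cxcl10 0.00118, Irf8 0.0496, Pf4 -0.23. With cells under 10000 UMIs left out the turned values were Rps24 0.000181, B4galt1 -0.00760, Ifi27l2a 0.0843, Mrc1 0.0208, Runx1 -0.00824. In the shNC libraries alone the turned values were B4galt1 -0.0687, Ccl7 -0.12, Cxcl10 0.32, Mki67 0.35, Runx1 -0.16, Spp1 0.21, Stat2 -0.0990, Tyrobp -0.0118. With a stricter macrophage gate the turned values were Ccl7 -0.0530, Ctsb -0.0784, Pf4 -0.17, Tyrobp -0.0162. Without the filter on low counts the turned values were Ctsb -0.0149, Ifit3 -0.0176, Pf4 -0.0221, Stat2 -0.0193, Tyrobp -0.00344. Without the block for library the turned values were Cxcl10 0.000587, Irf8 0.00260. With cells holding markers of other types left out the turned values were Ifit3 -0.0139, Il1a 0.0104, Stat2 -0.0265. By DESeq2 the turned values were Pf4 -0.0530, Stat2 -0.00660. With 1 library left out those that turned ran over Ccl7 -0.0543 to 0.20, Ctsb -0.0323 to 0.0692, Cxcl10 -0.18 to 0.0942, Ifit3 -0.0663 to 0.12, Irf8 -0.0956 to 0.10, Mki67 -0.40 to 0.10, Mrc1 -0.34 to 0.11, Pf4 -0.23 to 0.37, Runx1 -0.0546 to 0.13, Stat2 -0.0916 to 0.19, Tyrobp -0.0171 to 0.0535. With the Ms4a7-positive cells left out the turned response values were Cd24a -1.35. With the 485 cells past both macrophage limits left out the turned response values were Cd24a -0.76. With 3 microglia UMIs per 10000 the turned response values were Cd24a -0.10. With cells under 10000 UMIs left out the turned response values were Il10 0.0957. With 1 library left out the response values that turned ran over Nos2 -1.26 to 0.28, Il10 -1.03 to 0.23.

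Medians of the lists moved by more than the spread between libraries in 95 of 630 cases, and the cause was not tested. With the Ms4a7-positive cells left out they were microglia identity 3.28, macrophage identity -2.66, border-associated -3.34, disease-associated -0.57, MHC class II -1.05, MHC class I -0.26, chemokines -1.84, chemokine receptors -0.77, arginine genes -2.84, glycolysis -1.09, lipid handling -0.67, lysosomal -0.0457, integrins -0.69, toll-like receptors -0.64, Fc receptors -0.49, lectins -2.92, colony-stimulating factors -0.83, iron -0.35, metalloproteinases -1.18, checkpoints -0.35, immediate early 0.76. With the 485 cells past both macrophage limits left out they were microglia identity 3.22, macrophage identity -2.43, border-associated -2.61, disease-associated -0.27, MHC class II -0.94, MHC class I -0.23, chemokines -1.51, chemokine receptors -0.65, P-selectin ligands -0.39, arginine genes -2.31, glycolysis -0.77, lipid handling -0.53, lysosomal 0.00677, integrins -0.55, toll-like receptors -0.54, Fc receptors -0.40, lectins -2.59, colony-stimulating factors -0.68, iron -0.29, metalloproteinases -0.80, checkpoints -0.11. With 3 microglia UMIs per 10000 they were macrophage identity -1.70, chemokines -0.55, P-selectin ligands -0.27, arginine genes -0.86, TGF-beta 0.31, purinergic -0.21. With a microglia gate of 5 UMIs they were macrophage identity -1.60, chemokine receptors -0.77, P-selectin ligands -0.31. With a stricter macrophage gate they were chemokines -0.30. After thinning to 2000 UMIs they were MHC class I -0.0976, chemokines -0.0396, inflammatory cytokines -0.0491, integrins 0.11, purinergic 0.16, toll-like receptors -0.0190, colony-stimulating factors -0.23, immediate early 0.71. With cells under 10000 UMIs left out they were chemokines -0.13. With cycling cells left out they were disease-associated -0.20, P-selectin ligands -0.43, interferon-stimulated -0.57, TGF-beta 0.33, purinergic 0.0419, toll-like receptors -0.35, colony-stimulating factors -0.50, cell cycle 0.46. With cells holding markers of other types left out they were chemokines -0.19, lipid handling -0.0485. Without TMM they were MHC class I -0.0471, chemokines -0.28, interferon-stimulated -0.23, lipid handling -0.0658, lysosomal 0.23, purinergic 0.0429, Fc receptors -0.0116. Without the filter on low counts they were chemokines -0.25, P-selectin ligands -0.62, colony-stimulating factors 0.32, checkpoints -0.0964. In the shNC libraries alone they were chemokines -0.19, toll-like receptors -0.37, Fc receptors -0.24, checkpoints -0.10. In the shSELP libraries alone they were interferon-stimulated -0.49, lipid handling -0.30, purinergic 0.0672, toll-like receptors -0.0400, metalloproteinases -0.67. With 1 library left out they ran over microglia identity 2.28 to 2.77, macrophage identity -1.40 to -1.07, border-associated -0.71 to -0.18, transcription factors -0.11 to -0.0108, disease-associated -0.00380 to 0.0466, MHC class II -0.49 to -0.29, MHC class I -0.20 to -0.15, chemokines -0.48 to -0.10, chemokine receptors -0.43 to -0.16, complement genes 0.16 to 0.34, P-selectin ligands 0.0164 to 0.13, arginine genes -0.66 to -0.32, inflammatory cytokines -0.31 to -0.26, interferon-stimulated -0.46 to -0.34, glycolysis -0.54 to -0.29, lipid handling -0.22 to -0.16, lysosomal 0.0751 to 0.13, TGF-beta -0.0236 to 0.17, integrins -0.27 to -0.0751, purinergic -0.20 to -0.0312, toll-like receptors -0.28 to -0.17, Fc receptors -0.17 to -0.11, lectins -0.64 to -0.41, colony-stimulating factors -0.40 to -0.30, phagocytosis and TAM receptors 0.32 to 0.59, iron -0.22 to 0.00644, metalloproteinases -0.19 to 0.47, checkpoints -0.00108 to 0.0952, immediate early 0.14 to 0.45, cell cycle 0.77 to 1.03.

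In the CD11b+ libraries the share of called genes with the same direction was 72.4% after thinning and 87.5% with at least 50 CPM. Depth limits genes with few UMIs, and thinning left 4869 of 9600 genes to test.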

Other observations

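Genes outside the lists of the comparison, chosen after their values were seen, were also called. Higher in microglia-gated cells were Slco2b1, an organic anion transporter (5.86), Fscn1, which bundles actin and was also the most abundant of the dendritic cell markers (4.40), Nav3, a guidance protein of neurons (3.98), Phgdh, the first enzyme of serine synthesis (2.91), Pdgfb, a growth factor for pericytes (2.12), Glul, glutamine synthetase (1.69), Ptgs1, the constitutive cyclooxygenase (1.68), and Selenop, a selenium carrier (1.06). Higher in macrophage-gated cells were Slpi, a leukocyte protease inhibitor (-2.14), Upp1, which splits uridine (-1.90), Slc7a11, the cystine transporter (-1.21), Ass1, which rebuilds arginine from citrulline (-1.14), Sod2, the mitochondrial superoxide dismutase (-1.29), Prdx5, a peroxiredoxin (-1.03), and Plaur, the urokinase receptor (-0.94). Log2 differences are in brackets.

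Among the 9172 cells of the mix, 765 met both macrophage limits but had 1 or 2 UMIs of the microglia genes and belonged to neither class, and 386 cells had 2 UMIs of them. A UMI of the Cd3 genes removed 51 cells from the microglia gate and 53 from the macrophage gate.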
